A study of Mus musculus with 12 samples.

Results

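Transcripts of 39 liver enzymes that degrade or interconvert amino acids were examined in male and female mice lacking Siah2, a ubiquitin ligase. The 39 genes were chosen by symbol for their textbook place in 9 groups of amino acid pathways, with earlier results of these data known. All 39 were found among the 23420 gene symbols of both count tables. Livers of 12 mice on the C57BL/6 strain background, about 20 weeks old, had been taken at ZT10, that is 10 hours after lights on, and their mRNA was counted with the Lexogen QuantSeq 3′ method, which reads 1 tag near the 3′ end of each transcript. There were 3 wild type females (WTF), 3 Siah2-/- females (KOF), 3 wild type males (WTM) and 3 Siah2-/- males (KOM). Both genotypes were kept as homozygous lines descended from one intercross of heterozygotes, and Siah2 was missing from every tissue of the KO animals and throughout life, not from the liver alone. The study describes each library as the liver of 1 mouse, and mice are treated here as replicates, although the protocol in the labels speaks of RNA pooled from several mice.

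The liver is the main site where amino acids that are not needed for protein are broken down. Aminotransferases and dehydratases remove the amino group, carbon skeletons go to glucose, ketone bodies or the citric acid cycle, and single-carbon units go to folate and S-adenosylmethionine. Several of these genes, Tat, Sds, Tdo2 and Gpt2 among them, are known for induction by glucocorticoids, glucagon or fasting, and much of the pathway has a daily rhythm in rodent liver.

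The promoter sequences of 6 members are shown because these genes carry the comparisons described below, and because their first 250 bases before the start of the gene hold a short motif of a factor class with a role in liver rhythms or amino acid metabolism. Each is a stretch of 80 bases from RefSeq on GRCm38.p6, written 5′ to 3′ on the strand of the gene. The capitals in Pcca, Got1, Ahcy, Gnmt and Aass mark the nuclear receptor half-site AGGTCA or its reverse complement TGACCT, a sequence bound by REV-ERB, ROR and many other nuclear receptors. The capitals in Shmt1 mark CGTCA, the reverse complement of TGACG, the half-site of the cAMP response element.
Pcca, chr14:122484131-122484210, plus strand: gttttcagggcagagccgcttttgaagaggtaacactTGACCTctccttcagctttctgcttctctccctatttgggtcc
Got1, chr19:43524776-43524855, minus strand: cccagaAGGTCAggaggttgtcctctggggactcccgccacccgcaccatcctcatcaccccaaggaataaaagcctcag
Ahcy, chr2:155074660-155074739, minus strand: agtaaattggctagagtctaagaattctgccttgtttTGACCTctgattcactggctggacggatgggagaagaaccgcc
Gnmt, chr17:46729304-46729383, minus strand: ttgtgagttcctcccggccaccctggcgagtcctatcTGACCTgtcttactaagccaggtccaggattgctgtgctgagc
Aass, chr6:23133071-23133150, minus strand: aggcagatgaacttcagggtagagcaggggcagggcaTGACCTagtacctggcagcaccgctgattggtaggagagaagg
Shmt1, chr11:60811352-60811431, minus strand: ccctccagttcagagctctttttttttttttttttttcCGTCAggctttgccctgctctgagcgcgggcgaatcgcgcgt

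A promoter was matched for 32 of the 39 members. On either strand, AGGTCA occurred in the 250 bases before the start in 15 of these 32 (46.9%), against 15.8% of 27025 genes and 13.7% of 5116 genes expressed in these livers (mean CPM of 10 or more, CPM being the reads of a gene scaled to library size). The 15 were Hgd, Tdo2, Haao, Acmsd, Uroc1, Got1, Got2, Gnmt, Ahcy, Bhmt, Prodh2, Bckdhb, Pcca, Aldh6a1 and Aass. The E-box CACGTG, bound by CLOCK and BMAL1, occurred in 1 member, Cbs (3.12%, against 6.86% of all genes and 10.5% of the expressed ones). TGACG occurred in 5 members (15.6%, against 19.8% and 32.6%), which were Acmsd, Ftcd, Shmt1, Pcca and Aass. The glucocorticoid receptor half-site AGAACA occurred in 4 (12.5%, against 18.2% and 12.9%), and the D-box TTATGTAA and the C/EBP sequence TTGCGCAA in none of the 32, against 0.977% and 0.185% of all genes. Gpt2, Hal, Hpd, Prodh and Bckdha, also named in the comparisons below, had a matched promoter without AGGTCA. The sequences shown above were picked for holding a motif, and whether a motif goes with the differences was not tested. These are matches of letters in a window and not measured binding.

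Gene counts summed to between 1293688 and 4056144 reads in a library. Siah2 itself was low, with 17.0, 12.3 and 11.5 CPM in WTF, 10.0, 12.5 and 9.63 in KOF, 16.8, 27.1 and 21.4 in WTM and 9.42, 17.4 and 15.0 in KOM, and in both sexes the genotypes overlapped. The log2 fold change of Siah2 in KO relative to wild type was -0.34 in females and -0.67 in males, and no source used here places the sequenced tag inside or outside the deletion, which leaves the labels unchecked by these values. Hepatocyte markers were high in every liver, with 7 markers summing to between 24784 and 39495 CPM. Krt19, Adipoq, Plin1 and the pancreatic genes Cpa1, Pnlip, Ctrb1 and Amy2a5 had at most 3 counts in any library. The other markers of these lists were counted. All 5 pancreatic markers, Cela1 being the remaining one, summed to between 10.8 and 57.4 CPM. The sum was 47.8 to 127 CPM for 4 fat markers and 9.87 to 56.3 CPM for 5 bile duct markers. All libraries carry the same lane label, and their sample numbers run group by group. Those numbers need not follow the order of library preparation, so whether that order went with the groups is not known.

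One wild type female, 1091, stood apart from its group, and the amino acid genes stood apart with it. Of the 39 members, 10 were more than 1.5-fold above both other wild type females (Hgd, Fah, Afmid, Ftcd, Sdsl, Agxt, Gpt, Mat1a, Prodh2 and Bckdhb) and 7 were more than 1.5-fold below both (Tat, Kmo, Sds, Cth, Dbt, Aldh6a1 and Aass). Over the 6699 genes with at least 10 CPM, the share apart in this way was 37.3% in mouse 1091, and it was 3.91% to 10.5% in the other 11 mice, in which 1 to 6 members stood apart from their group. Comparisons that use the wild type females are therefore given as counts with and without this mouse, and so are several single fold changes that move without it. Fewer hepatocytes and less RNA per hepatocyte cannot be told apart in such bulk samples.

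Together the members took 1.54% to 3.03% of the reads of a liver. Their summed level was 22654 ± 4981 CPM (SD, n = 3) in WTF, 27462 ± 3231 in KOF, 18090 ± 2080 in WTM and 17513 ± 2066 in KOM, and the lowest KO female (23831) lay above the highest KO male (19876). QuantSeq counts do not grow with transcript length, so CPM levels of different genes are set side by side here without a length correction. Mat1a, which makes S-adenosylmethionine from methionine, had the highest mean over the 12 mice (6307 CPM) and took 18.4% to 41.0% of all member reads. Tdo2, the dioxygenase that opens the tryptophan ring and commits it to the kynurenine pathway, was second with 2728 CPM, and Gnmt, which consumes S-adenosylmethionine by methylating glycine, followed with 1374 CPM. At the other end were Sdsl, a relative of serine dehydratase, with 13.0 CPM, and Acmsd, which diverts the kynurenine pathway away from NAD synthesis, with 9.54 CPM. Without Mat1a the members summed to 14537 ± 2269 CPM in WTF and 14000 ± 775 in WTM. In KO mice that sum was 18506 ± 2111 CPM in KOF and 13449 ± 1786 in KOM. All 39 members passed the filter on low counts in every comparison.

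**Figure D1:**
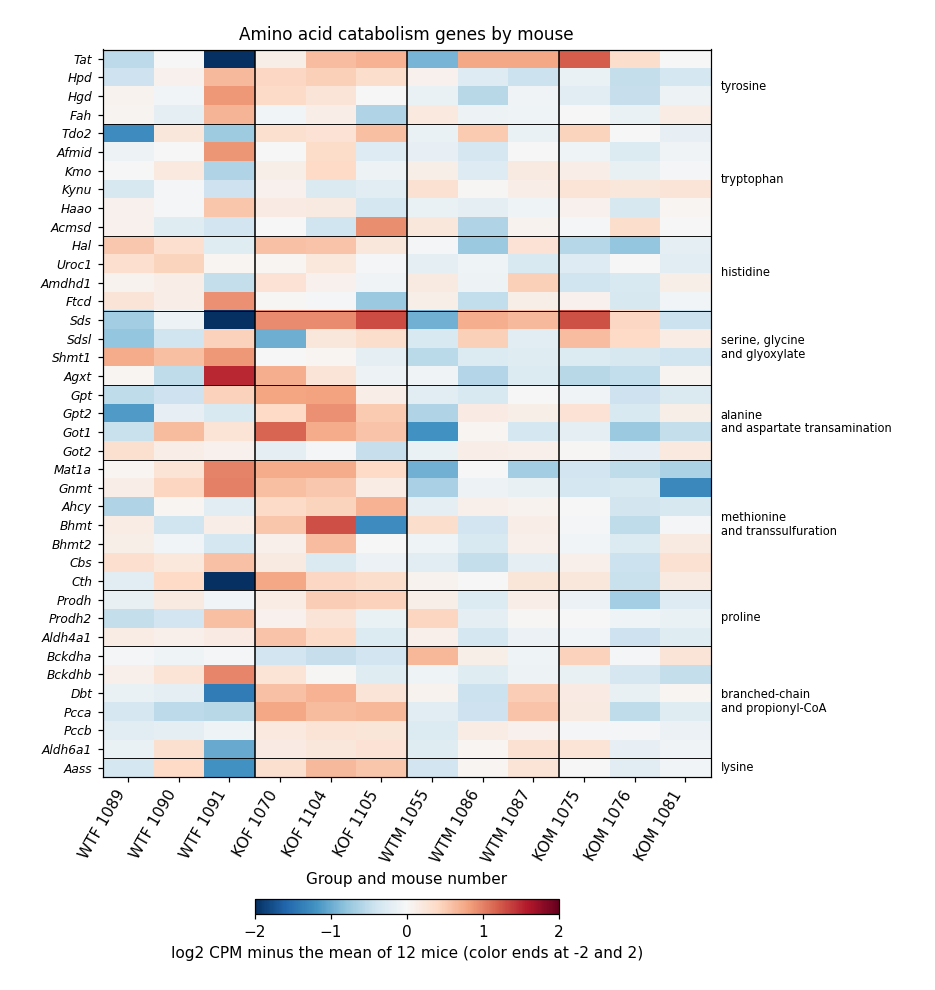
The color gives the level of each member (rows, grouped by pathway) in each mouse (columns, 3 per group) as log2 CPM minus the mean of that gene over the 12 mice. Wild type female 1091 is the column with the strongest colors, deep blue at Tat, Sds and Cth and red at Agxt and Mat1a, and the 3 KO females are mostly red in the transamination rows other than Got2 and at Mat1a.

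In KO females, 26 members had a higher level than in wild type females and 13 a lower one, and the median log2 fold change was 0.21 against -0.03 over all 9465 genes tested. The members farthest up were Sds, Tat, Pcca, Gpt2 and Dbt, and those farthest down were Shmt1 and Ftcd. None of the 39 passed an adjusted p of 0.05 with edgeR's quasi-likelihood test and Benjamini-Hochberg adjustment, as did 0% of all genes, and 8 members (20.5%) had an unadjusted p under 0.05, against 15.6% of all genes. In 8 members all 3 KO females lay above all 3 wild type females (20.5%, against 11.4% of all genes), and in 5 they lay below (12.8%, against 11.9%). DESeq2 called 3 members, Pcca and Gpt2 higher and Shmt1 lower (7.69%, against 3.6% of the genes it tested), and limma-voom called none. Without wild type female 1091, edgeR called 6 members (15.4%, against 9.64% of all genes), with Sds, Pcca, Gpt2, Gpt and Dbt higher and Shmt1 lower.

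Members of branched-chain amino acid and propionyl-CoA breakdown included the smallest p of the comparison. Pcca (chr14:122484365-122889944), the biotin-carrying subunit of propionyl-CoA carboxylase, had 58.8, 51.9 and 50.6 CPM in wild type females 1089, 1090 and 1091, and 127, 115 and 118 CPM in KO females 1070, 1104 and 1105. Every KO female had a level near 120 CPM and every wild type female a level under 60 CPM, with SDs of 6.24 and 4.41 (n = 3 each). The male levels, 63.5, 55.8 and 110 CPM in wild type males 1055, 1086 and 1087 and 84.4, 52.5 and 63.1 CPM in KO males 1075, 1076 and 1081, lay between or near these, and the genotypes overlapped. In females the log2 fold change was 1.14 (SE 0.21), or 2.21-fold, and the edgeR adjusted p by Benjamini-Hochberg was 0.0793. That p was 0.000806 with DESeq2 and 0.00681 in edgeR without mouse 1091, and it ran from 0.000806 to 0.351 over 15 alternatives, 5 of which called the gene. An exon of Pcca overlaps one of A2ld1 on the opposite strand, and no source used here says whether counting was by strand.

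Dbt, the acyltransferase core of the branched-chain ketoacid dehydrogenase, had 169, 164 and 71.0 CPM in WTF and 278, 301 and 223 CPM in KOF, in the same order of mice. The groups did not overlap, and mouse 1091 was the low one. The log2 fold change was 0.98 (SE 0.33) with an edgeR adjusted p of 0.199, and without mouse 1091 it was 0.69 (SE 0.19) with an edgeR adjusted p of 0.0433. Both E1 subunits of the same complex had a lower level in KO females, and neither passed the test. Bckdha, the E1 alpha subunit, had 59.9, 57.0 and 58.9 CPM in WTF and 46.3, 44.2 and 46.4 CPM in KOF, a narrow spread in both groups with no overlap, and its log2 fold change was -0.38 (SE 0.21, edgeR adjusted p 0.428). Bckdhb, the E1 beta subunit, had a log2 fold change of -0.48 (SE 0.28, edgeR adjusted p 0.444), and of -0.16 (SE 0.20) without mouse 1091. The E3 subunit gene Dld, which is not among the 39, had one of 0.21 (SE 0.28), and of -0.03 (SE 0.19) without that mouse. Pccb, the partner subunit of Pcca, had 172, 175 and 189 CPM in WTF and 231, 244 and 238 CPM in KOF, with no overlap, a log2 fold change of 0.40 (SE 0.20) and an edgeR adjusted p of 0.390. The methylmalonate semialdehyde dehydrogenase gene Aldh6a1 had a log2 fold change of 0.39 (SE 0.32) with mouse 1091 and of 0.11 (SE 0.19) without it. An exon of Aldh6a1 overlaps 2900006K08Rik on the opposite strand.

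Among the serine, glycine and glyoxylate enzymes, Sds and Shmt1 differed in opposite directions. Sds, serine dehydratase, which turns serine into pyruvate, had 78.0, 118 and 7.64 CPM in WTF and 245, 243 and 314 CPM in KOF. All KO females were above all wild type females, and mouse 1091 had less than any other liver of the study. The male genotypes overlapped, with 65.0, 211 and 198 CPM in WTM and 306, 169 and 93.9 CPM in KOM. The female log2 fold change was 1.97 (SE 0.67), or 3.91-fold, with an edgeR adjusted p of 0.201, and without mouse 1091 it was 1.44 (SE 0.23) with an edgeR adjusted p of 0.00546. Over the 15 alternatives its adjusted p ran from 7.21e-08, in edgeR with no filter beyond 1 count, to 0.446, and 3 of them called the gene. Exons of Sds overlap Gm15690 and Plbd2 on the opposite strand.

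Shmt1 (chr11:60788897-60811265), the cytosolic hydroxymethyltransferase that moves a carbon from serine to folate, had 239, 217 and 262 CPM in WTF and 142, 147 and 127 CPM in KOF. The wild type females were the highest of the 12 mice, and the KO females lay closer to the males, which had 98.6, 119 and 121 CPM (WTM) and 119, 115 and 109 CPM (KOM). The log2 fold change in females was -0.80 (SE 0.21), which is 1.74-fold lower, with an edgeR adjusted p of 0.126. The adjusted p was 0.0391 with DESeq2 and 0.0258 in edgeR without mouse 1091, and it ran from 0.0168 to 0.393 over the alternatives, of which 4 of 15 called the gene. An exon of Shmt1 overlaps one of Smcr8 on the opposite strand. Agxt, which detoxifies glyoxylate to glycine, had 544, 376 and 1521 CPM in WTF and 879, 635 and 495 CPM in KOF, and its sign turned with mouse 1091, from a log2 fold change of -0.29 (SE 0.47) with it to 0.55 (SE 0.25) without it.

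Of the 4 transaminases of alanine and aspartate, 3 had higher levels in KO females. Gpt2, the mitochondrial alanine aminotransferase, had 506, 984 and 892 CPM in WTF and 1451, 2088 and 1588 CPM in KOF, so that the lowest KO female was above the highest wild type female. Males had 727, 1233 and 1195 CPM (WTM) and 1357, 892 and 1201 CPM (KOM). The female log2 fold change was 1.09 (SE 0.31), or 2.13-fold, and the adjusted p was 0.138 with edgeR, 0.0240 with DESeq2 and 0.0255 in edgeR without mouse 1091 (0.00960 to 0.470 over 15 alternatives).
Gpt, the cytosolic alanine aminotransferase that is measured in blood as ALT, had 173, 184 and 340 CPM in WTF and 424, 430 and 271 CPM in KOF. Mouse 1091 lay among the KO females. With it the log2 fold change was 0.68 (SE 0.32) and the edgeR adjusted p 0.344, and without it 1.07 (SE 0.22) and 0.0159. Got1, the cytosolic aspartate aminotransferase, had a log2 fold change of 0.61 (SE 0.31, edgeR adjusted p 0.372). Got2, its mitochondrial counterpart, had 356, 315 and 303 CPM in WTF and 249, 279 and 209 CPM in KOF, which did not overlap, with a log2 fold change of -0.41 (SE 0.22, edgeR adjusted p 0.408). The longest run of identical bases between the transcripts of Gpt and Gpt2 was 20 nt and between those of Got1 and Got2 12 nt.

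**Figure D2:**
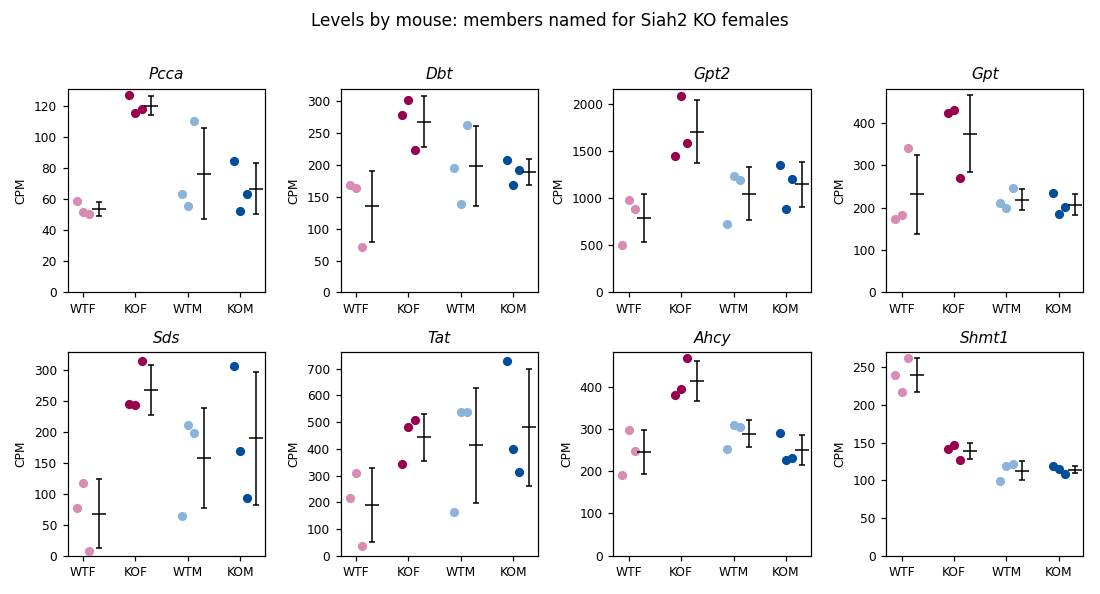
Each point is the level (CPM) of a gene in 1 mouse, with 3 mice per group, and the bar beside them is the mean with its SD. For Pcca, Dbt, Gpt2, Sds, Tat and Ahcy all KO females lie above all wild type females, for Shmt1 all lie below, and Gpt overlaps through wild type female 1091 at 340 CPM.

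In tyrosine and tryptophan breakdown the female fold changes of most genes moved with mouse 1091. Tat, tyrosine aminotransferase, had 218, 311 and 37.9 CPM in WTF and 342, 481 and 507 CPM in KOF, and Tdo2 had 1079, 3017 and 1567 CPM in WTF and 3226, 3166 and 3904 CPM in KOF. For both, the lowest KO female was above the highest wild type female, by a small margin against the spread of the wild type mice. The log2 fold changes were 1.22 (SE 0.57, edgeR adjusted p 0.343) for Tat and 0.85 (SE 0.37, edgeR adjusted p 0.299) for Tdo2. Tdo2 was at 2350, 3712 and 2351 CPM in WTM and 3500, 2568 and 2291 CPM in KOM, which overlapped. The later enzymes had female log2 fold changes from -0.39 to 0.23 for Hpd, Hgd and Fah of tyrosine breakdown, and from -0.29 to 0.40 for Afmid, Kmo, Kynu, Haao and Acmsd of the kynurenine pathway, with edgeR adjusted p from 0.590 to 0.885. Without mouse 1091 the log2 fold change of Tat was 0.74 (SE 0.23) and that of Tdo2 0.74 (SE 0.34), while Hpd went up to 0.56 (SE 0.19), Fah was at -0.08 (SE 0.22), and Hgd and Afmid turned from -0.14 to 0.21 and from -0.29 to 0.11. Exons of Afmid overlap Syngr2 on the same strand and Tk1 on the opposite strand, so its counts may be uncertain. Fold changes of entry and later enzymes were not tested against each other.

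Of the methionine cycle and transsulfuration genes, 5 of 7 were higher in KO females. Ahcy (chr2:155059310-155074497), which hydrolyses S-adenosylhomocysteine, had 192, 297 and 248 CPM in WTF and 379, 395 and 468 CPM in KOF. The groups did not overlap, the log2 fold change was 0.74 (SE 0.24), and the edgeR adjusted p was 0.197 with all 6 mice and 0.0516 without mouse 1091, with a range of 0.0261 to 0.476 over 15 alternatives, of which 2 called it. Cth, which makes cysteine from cystathionine, had 472, 718 and 135 CPM in WTF and 933, 724 and 692 CPM in KOF, which overlapped, and its log2 fold change was 0.81 (SE 0.48) with mouse 1091 and 0.40 (SE 0.22) without it. Cbs, the enzyme just before it, had 160, 146 and 190 CPM in WTF and 143, 103 and 117 CPM in KOF, with no overlap and a log2 fold change of -0.46 (SE 0.23, edgeR adjusted p 0.368). Bhmt, which remethylates homocysteine with betaine, had 1688, 2823 and 483 CPM in the KO females, the widest spread of any member in that group (coefficient of variation 70.3%). Bhmt shares a run of 59 nt with its neighbor Bhmt2, so reads of the pair may be uncertain. An exon of Bhmt also overlaps Gm15622 on the opposite strand.

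Of the histidine, proline and lysine genes, 1 had an unadjusted p under 0.05. Ftcd, the last enzyme of histidine breakdown, had 516, 474 and 816 CPM in WTF and 436, 418 and 259 CPM in KOF, all KO females below all wild type females, with a log2 fold change of -0.71 (SE 0.30, edgeR adjusted p 0.290, range 0.147 to 0.617 over 15 alternatives), and of -0.41 (SE 0.22) without mouse 1091. Hal, Uroc1 and Amdhd1, the 3 enzymes before it, had log2 fold changes from -0.23 to 0.21. Those of Prodh, Prodh2 and Aldh4a1, which turn proline and hydroxyproline to glutamate or glyoxylate precursors, were between 0.06 and 0.36, and without mouse 1091 that of Prodh2 went from 0.06 to 0.50 (SE 0.18). Aass, which starts lysine breakdown, had a log2 fold change of 0.74 (SE 0.36, edgeR adjusted p 0.360), and of 0.43 (SE 0.23) without mouse 1091.

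**Figure D3:**
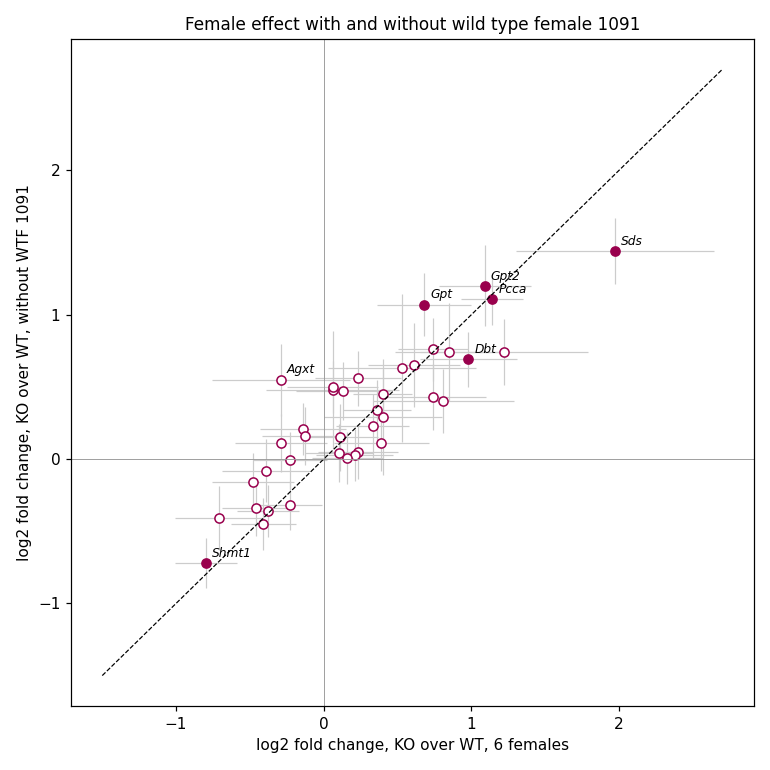
Each point is 1 of the 39 members, with the log2 fold change of KO over wild type females from all 6 mice on the horizontal axis and without wild type female 1091 on the vertical axis, gray bars for standard errors and a dashed line of equal values. Filled points passed an adjusted p of 0.05 in edgeR without that mouse, and Agxt goes from -0.29 to 0.55.

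Tat and Sds, both known as genes of the fasted liver, shared their lowest mice. The 3 lowest livers of the 12 for Tat were wild type female 1091 (37.9 CPM), wild type male 1055 (165 CPM) and wild type female 1089 (218 CPM). For Sds the lowest 3 were these same mice in the same order, with 7.64, 65.0 and 78.0 CPM. Wild type male 1055 was also lowest for Got1 (144 CPM) and second lowest for Gpt2 (727 CPM), where wild type female 1089 was lowest (506 CPM), and 4 members in all (Tat, Sds, Gpt2 and Got1) stood more than 1.5-fold below both other wild type males in it. Other genes had other lowest mice. After wild type male 1055, the lowest for Got1 were KO males 1076 (200 CPM) and 1081 (242 CPM). For Tdo2 the lowest 3 were wild type females 1089 (1079 CPM) and 1091 (1567 CPM) and KO male 1081 (2291 CPM). For Cth they were wild type female 1091 (135 CPM), KO male 1076 (397 CPM) and wild type female 1089 (472 CPM). KO male 1075 had the highest Tat of the study, 728 CPM. The feeding state of single mice is not given in the labels, and its part in these levels was not tested.

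In males no member passed the test. Log2 fold changes of KO relative to wild type were between -0.40 (Hal) and 0.34 (Sdsl), 12 members had a higher level and 27 a lower one, and the median was -0.04 against -0.01 over 8823 genes. With edgeR, 0 members passed (background 0%) and every adjusted p rounded to 1, 0 had an unadjusted p under 0.05 (background 4.05%), and in 0 did the genotypes fail to overlap, against 4.45% of all genes higher and 4.42% lower. DESeq2 and limma-voom also called 0. The branched-chain and propionyl-CoA genes, which included the leading members in females, had male log2 fold changes of -0.23 to -0.01. Standard errors in males were 0.15 to 0.40, and the common coefficient of biological variation was 0.189 in males, 0.286 in females and 0.191 in females without mouse 1091.

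With both sexes combined, 6 KO against 6 wild type mice, 23 members had a higher level and 16 a lower one (median 0.07 on the log2 scale). EdgeR called 0 members (background 0.0111%), as did DESeq2 and limma-voom, and 1 member, Gpt2, had an unadjusted p under 0.05 (background 5.65%). Its log2 fold change was 0.62 (SE 0.24) with an edgeR adjusted p of 0.866, and 0.501 to 0.997 over 21 alternatives. Without wild type female 1091, 30 members had a higher level and 9 a lower one (median 0.13). EdgeR then called 0 members (all genes 0 of 9156), and 3 had an unadjusted p under 0.05 (7.69%, all genes 499 of 9156).

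**Figure D4:**
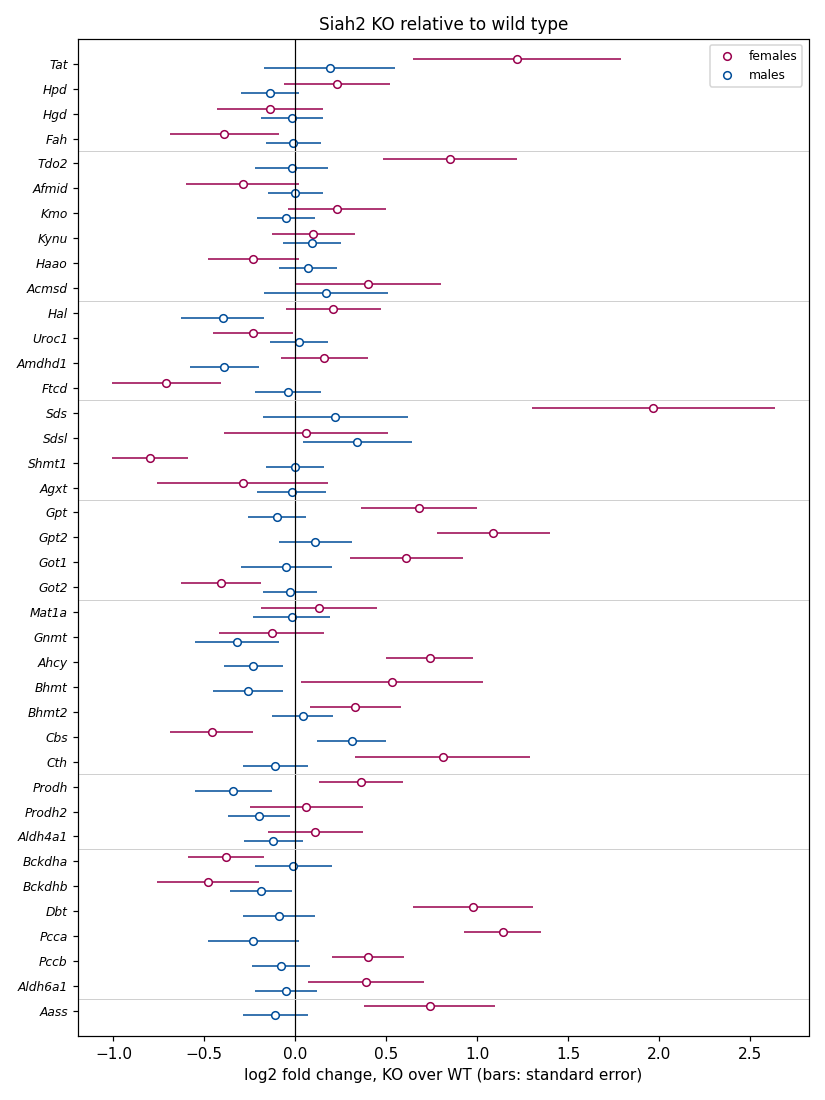
Points are log2 fold changes of KO over wild type in females (red) and males (blue) for the 39 members in pathway order, with bars for the standard error; gray lines part the pathways, and all points are open because none passed an adjusted p of 0.05 in edgeR. Female points spread from -0.80 (Shmt1) to 1.97 (Sds), and male points from -0.40 to 0.34.

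Whether the KO effect differed between the sexes was tested as the female minus the male log2 fold change. Its median over the members was 0.29, against -0.02 over 9806 genes. EdgeR called 0 members (background 0.255%), and 7 had an unadjusted p under 0.05 (17.9%, background 14.1%). Of these, Pcca differed by 1.37 (SE 0.35), Dbt by 1.07 (SE 0.42), Gpt2 by 0.98 (SE 0.39), Ahcy by 0.96 (SE 0.29) and Prodh by 0.70 (SE 0.31), all toward a more positive KO effect in females. Shmt1 differed by -0.80 (SE 0.25) and Cbs by -0.77 (SE 0.31), and the edgeR adjusted p of the 7 ran from 0.104 to 0.317. Cbs was at 109, 90.5 and 110 CPM in WTM and 135, 94.2 and 156 CPM in KOM, and Prodh, the first enzyme of proline oxidation, was at 38.3, 48.3 and 40.8 CPM in WTF, 47.1, 59.7 and 58.4 in KOF, 45.9, 35.2 and 46.4 in WTM and 39.2, 26.5 and 35.5 in KOM. Genotypes overlapped in males for both genes, and in females for Prodh.
DESeq2 called 3 members for this difference, Pcca, Ahcy and Shmt1 (7.69%, against 3.46% of the genes it tested). Without wild type female 1091 edgeR also called 3 (background 5.15%), which were Pcca (1.35, SE 0.35, adjusted p 0.0335), Gpt (1.17, SE 0.27, adjusted p 0.0234) and Ahcy (0.98, SE 0.27, adjusted p 0.0436). Dbt, Gpt2, Cbs and Prodh were called in none of their 20 alternatives.

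Between wild type females and wild type males the members were evenly split, 20 higher in females and 19 lower, and the median of their log2 fold changes was 0.03 against 0.05 over all genes. EdgeR called 1 member, Shmt1 (2.56%, against 1.39% of all genes), which was 2.17-fold higher in females (log2 fold change 1.12, SE 0.23, adjusted p 0.0450, with 0.00200 to 0.249 over 15 alternatives, 9 of which called it). DESeq2 called the same number (background 3.68%), as did edgeR without mouse 1091 (background 7.73%). At an unadjusted p under 0.05 there were 6 members, all higher in females (15.4%, background 15.2%). Besides Shmt1 these were Mat1a (1.03, SE 0.37), Gnmt (0.88, SE 0.31), Cbs (0.72, SE 0.23), Bckdhb (0.69, SE 0.28) and Uroc1 (0.51, SE 0.22), with edgeR adjusted p from 0.185 to 0.307. Without mouse 1091 the log2 fold changes of Mat1a, Gnmt and Bckdhb were smaller, at 0.66 (SE 0.26), 0.56 (SE 0.20) and 0.34 (SE 0.18). Bckdhb was at 105, 119 and 192 CPM in WTF and 92.5, 82.4 and 91.3 CPM in WTM, and the urocanase gene Uroc1 was at 147, 159 and 120 CPM in WTF and 103, 109 and 94.4 CPM in WTM. All females were above all males for both genes. In 10 members the females lay above the males without overlap (25.6%, against 11.5% of all genes), and in 1, Kynu, below (2.56%, against 11.2%).

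KO females and KO males differed in more members. Mat1a, Gnmt and Ahcy of the methionine cycle, Got1 and Gpt of transamination, Hal, Hpd, Pcca, Prodh and Aass were higher in KO females, and Bckdha was lower. These 11 members passed the edgeR test (28.2%, against 11.5% of 9102 genes, and 10 higher in females, against 5.69%). DESeq2 called 13 (33.3%, background 10.1%). A fit of all 4 groups together called 2, Mat1a and Got1 (all genes 352 of 9806). Why its count was lower was not tested. All KO females lay above all KO males in 16 members (41.0%, against 14.7% of all genes) and below in 2, Kynu and Bckdha (5.13%, against 16%). The median log2 fold change was 0.31, against -0.00 over all genes.

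Mat1a had 9622, 9635 and 7611 CPM in KOF and 4426, 4033 and 3732 CPM in KOM, a clear gap. Wild type mice had 5919, 6992 and 11438 CPM (WTF) and 2949, 5768 and 3554 CPM (WTM), again with every female above every male. The log2 fold change was 1.15 (SE 0.17) between KO females and males with an edgeR adjusted p of 0.000538, and Mat1a was called in 15 of 15 alternatives. Gnmt, which uses the product of Mat1a, had 1929, 1844 and 1410 CPM in KOF and 990, 1027 and 518 CPM in KOM. It had 1384, 1708 and 2542 CPM in WTF and 806, 1186 and 1150 CPM in WTM, so females were above males in both genotypes. Its log2 fold change in KO mice was 1.04 (SE 0.23, edgeR adjusted p 0.00924). Ahcy, with KO females at 379 to 468 CPM and KO males at 291, 226 and 232 CPM, had a log2 fold change of 0.73 (SE 0.16, edgeR adjusted p 0.00806), whereas its wild type females (192 to 297 CPM) overlapped the wild type males (253, 310 and 304 CPM).

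Got1 (chr19:43499752-43524605) had the lowest p among the members. It was at 748, 558 and 500 CPM in KOF and 294, 200 and 242 CPM in KOM, and at 247, 521 and 404 CPM in WTF and 144, 344 and 262 CPM in WTM. KO females lay above all 6 males, and wild type sexes overlapped. The log2 fold change between KO females and KO males was 1.30 (SE 0.19), or 2.47-fold, with an edgeR adjusted p of 0.000393, and 15 of 15 alternatives called it. Gpt was at 424, 430 and 271 CPM in KOF and 234, 185 and 202 CPM in KOM (log2 fold change 0.87, SE 0.18, edgeR adjusted p 0.00729), and its wild type males were at 212, 199 and 247 CPM.

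Hal, histidine ammonia-lyase (chr10:93488768-93516761), had 360, 358 and 281 CPM in KOF and 162, 141 and 211 CPM in KOM. Wild type mice had 348, 304 and 204 CPM (WTF) and 236, 144 and 293 CPM (WTM), which overlapped. Its log2 fold change in KO mice was 0.96 (SE 0.18, edgeR adjusted p 0.00251). Amdhd1, its neighbor on the chromosome and the enzyme 2 steps further in the same pathway, had a log2 fold change of 0.29 (SE 0.17).
Hpd, the dioxygenase after tyrosine aminotransferase, had 1054, 1099 and 1013 CPM in KOF and 721, 567 and 618 CPM in KOM, with a log2 fold change of 0.74 (SE 0.15, edgeR adjusted p 0.00598), against 597, 838 and 1243 CPM in WTF and 840, 664 and 586 CPM in WTM. Aass had 203, 254 and 237 CPM in KOF and 161, 140 and 156 CPM in KOM, with a log2 fold change of 0.60 (SE 0.15, edgeR adjusted p 0.0193), against 127, 214 and 69.8 CPM in WTF and 125, 166 and 196 CPM in WTM. In both genes the wild type sexes overlapped.

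Pcca, with values given above, was 1.80-fold higher in KO females than in KO males (log2 fold change 0.85, SE 0.18, edgeR adjusted p 0.00753), while wild type females were not higher (log2 fold change -0.49, SE 0.29, edgeR adjusted p 0.465). Prodh had a log2 fold change of 0.70 (SE 0.20, edgeR adjusted p 0.0343) and was called in 8 of 15 alternatives. Bckdha, at 46.3, 44.2 and 46.4 CPM in KOF, was at 83.7, 59.0 and 72.2 CPM in KOM and 95.6, 65.9 and 56.9 CPM in WTM, and its log2 fold change in KO mice was -0.65 (SE 0.18, edgeR adjusted p 0.0305, called in 9 of 15 alternatives). A call between the sexes in KO mice and none in wild type mice does not show that the sex difference depended on genotype. That is the difference tested above, in which none of the 11 passed in edgeR with all mice.

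Markers of other cells differed between groups too. Between KO females and KO males, the summed level of 7 Kupffer cell markers was 330 to 786 CPM in KOF and 97.8 to 225 CPM in KOM, that of 5 endothelial markers 204 to 220 and 156 to 181 CPM, and that of 4 red blood cell genes 8.47 to 19.3 and 103 to 154 CPM. The red blood cell genes Hba-a1, Hba-a2 and Hbb-b1 had at most 3 counts in any library. The red blood cell sum therefore rested largely on the remaining gene and is not a broad measure of these cells. Between wild type females and males, the red blood cell sum was 20.1 to 25.2 CPM in WTF and 83.9 to 105 CPM in WTM, and the sum of 5 bile duct markers was 9.87 to 45.1 and 47.4 to 56.3 CPM. Wild type and KO females did not overlap in the red blood cell sum, which was lower in KOF, or in the sum of 4 fat markers, with 47.8 to 54.9 CPM in WTF and 57.8 to 110 CPM in KOF. Of these fat markers, Adipoq and Plin1 had at most 3 counts in any library. In males the bile duct sum was 47.4 to 56.3 CPM in WTM and 27.8 to 36.2 CPM in KOM. The hepatocyte sum overlapped between KOF (25257 to 32210 CPM) and KOM (25003 to 27850 CPM), and between WTF (28401 to 39495 CPM) and each of KOF and WTM (24784 to 30870 CPM). The part of these cells in the member differences was not tested.

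**Figure D5:**
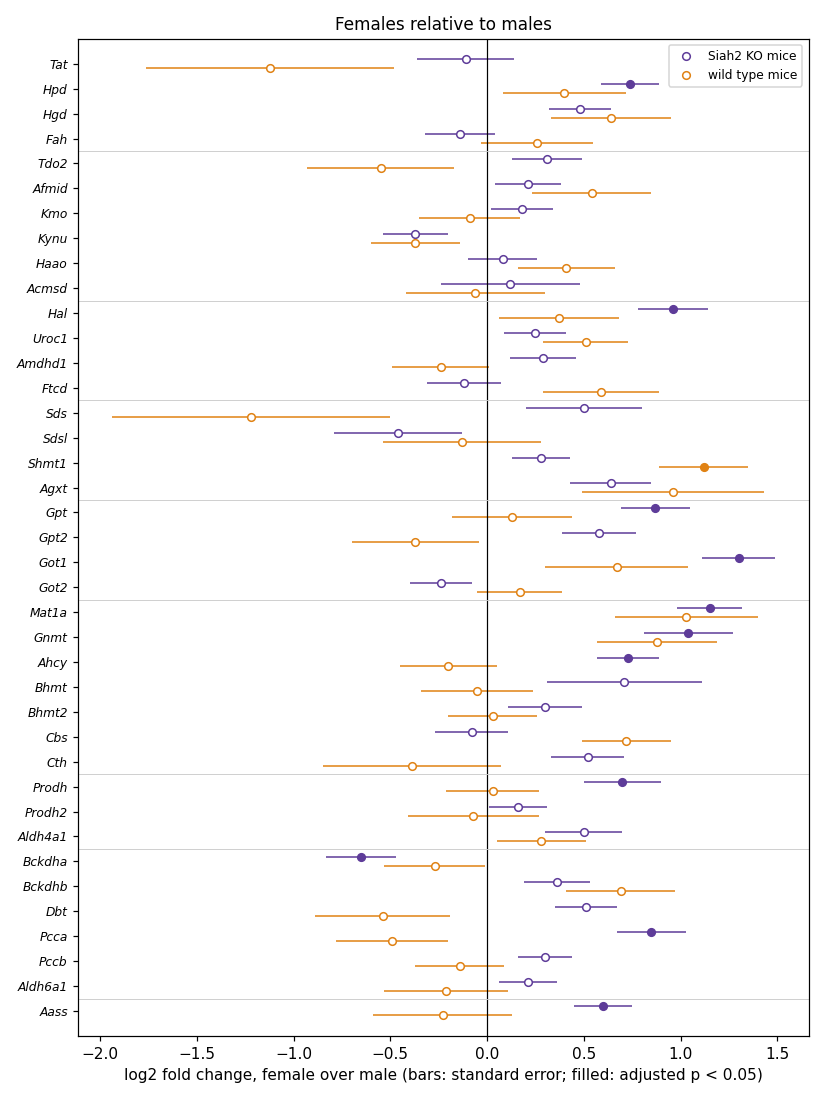
Points are log2 fold changes of females over males among KO mice (purple) and wild type mice (orange) for the 39 members in pathway order, with bars for the standard error and filled points for an adjusted p under 0.05 in edgeR. Filled purple points are the 11 members called in KO mice, led by Got1 at 1.30 and Mat1a at 1.15, and the filled orange point is Shmt1 at 1.12.

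A wider list of 61 other genes of amino acid breakdown, of which 56 could be tested, was used as the surroundings of the 39. Between KO and wild type females edgeR called 0 of them, and 10 (17.9%, background 15.6%) had an unadjusted p under 0.05. In males it called 0 with 2 at an unadjusted p under 0.05 (3.57%, background 4.05%), with the sexes combined 0 with 5 (8.93%, background 5.65%), and for the difference between the sexes 0 with 8 (14.3%, background 14.1%). In females DESeq2 called 2, Suox higher and Mpst lower (3.57%, background 3.6%), and edgeR without mouse 1091 called 6 (10.7%, background 9.64%), with Suox, Gldc, Ido2 and Mmaa higher and Mpst and Ethe1 lower. For the difference between the sexes DESeq2 called 1, Mpst (1.85%, background 3.46%), and edgeR without mouse 1091 called 2, Mpst and Gldc (3.57%, background 5.15%). Mpst, which moves sulfur from mercaptopyruvate, had a log2 fold change of -2.06 (SE 0.40, edgeR adjusted p 0.0851) between KO and wild type females.

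Between wild type females and males edgeR called 1 gene of the wider list, again Mpst, which was higher in females (1.79%, background 1.39%, log2 fold change 1.97, SE 0.37, adjusted p 0.0326). Between KO females and males it called 5 (8.93%, background 11.5%). The leucine-pathway gene Mccc2 was higher in females (0.92, SE 0.24), while the sulfur genes Ethe1 (-1.46, SE 0.21) and Csad (-1.46, SE 0.41), the kynurenine aminotransferase gene Ccbl1 (-1.10, SE 0.18) and the glyoxylate reductase gene Grhpr (-0.61, SE 0.15) were lower. In this list 1 gene was called higher and 4 lower, where among the 39 members it was 10 and 1. The median log2 fold change was 0.08 in the wider list and 0.31 among the members.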

How the data were processed

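Liver mRNA of 12 mice was counted by QuantSeq. The authors trimmed, mapped and counted reads on BaseSpace and deposited raw counts per gene, with no normalization, in a table for each sex. The submitters' processing notes name STAR, DESeq and mm10 without their role, and the paper's methods name DESeq2. No source used here says whether counting was by strand. Both tables were joined by gene symbol. CPM used TMM factors over the 12 libraries. With 1293688 to 4056144 reads per mouse, the lowest member had 12 counts, and reads without molecular identifiers give counting limits only.

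Each of the 6 comparisons was fitted over all genes with edgeR 4.0.16 in R 4.3.3 (filterByExpr, TMM, quasi-likelihood F test, two-sided, Benjamini-Hochberg, threshold 0.05). Each SE was derived from the fold change and its F statistic. Groups are those of the labels. Alternatives were DESeq2 1.42.0, limma-voom (limma 3.58.1) with and without quality weights, RLE scaling, 2 other count filters, libraries thinned to 1293688 reads, removal of Rn45s (5.68% to 17.9% of reads), all 4 groups in 1 fit and each mouse left out. The edgeR fit was tested on simulated data with larger fold changes than those of the members and no outlying mouse. That test does not measure its power for the changes described here. Promoters and positions are from RefSeq GRCm38.p6, and overlaps of exons from GENCODE M1. Figures used Python 3.11.15 and matplotlib 3.10.9.

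Full statistics are given for members called by edgeR and, where fewer than 8 were called, for those with an unadjusted p under 0.05, up to 12. The values of each mouse are given for these and for the 3 members of highest mean CPM. Tat, Gpt, Agxt, Cth, Bckdha, Pccb, Got2 and Bhmt in females, the promoters, and of the wider list Dld, Suox, Gldc, Ido2 and Mmaa, were picked after their values were seen. The members and lists were chosen with earlier results of these data known.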

Additional observations from a re-analysis of the deposited data

Results flagged for a closer look

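For 3 members DESeq2's test of the difference itself called a KO effect that differed between the sexes (7.69%, against 3.46% of the genes it tested). With all mice, edgeR and limma-voom called no member for this difference. The female minus male difference of the log2 fold change was 1.37 for Pcca (DESeq2 adjusted p 0.0177), 0.97 for Ahcy (DESeq2 adjusted p 0.0290) and -0.80 for Shmt1 (DESeq2 adjusted p 0.0293). In edgeR, with Benjamini-Hochberg adjustment, the same differences had adjusted p of 0.104, 0.139 and 0.142. Over the 20 alternatives the adjusted p was 0.0169 to 0.298 for Pcca, 0.0260 to 0.333 for Ahcy and 0.0293 to 0.316 for Shmt1, and 4, 3 and 2 of them called the gene. Groups of 3 mice were too small for a formal rule on single outlying values, and only the 1.5-fold comparison of each mouse with its group, given above, was made.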

How the results depend on the processing

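Direction held for the 33 fold changes named by the rule, but not for all others. In females 4 others turned positive without WTF 1091 (Agxt, -0.29 to 0.55, Hgd, -0.14 to 0.21, Afmid, -0.29 to 0.11, and Gnmt, -0.13 to 0.16). Without some other mouse, Sdsl (0.06 to -0.18), Prodh2 (0.06 to -0.13), Bhmt (0.53 to -0.08), Mat1a (0.13 to -0.06), Aldh4a1 (0.11 to -0.06), Kynu (0.10 to -0.02) and Acmsd (0.40 to -0.02) turned negative. Signs turned in other comparisons too, as for Tat in males (0.19 to -0.22). Of 536 pairs of a fold change named by the rule and an alternative, 473 kept their side of the threshold, 31 passed it anew, 32 lost it and 0 turned sign. Counts of members called moved more, as did counts over all genes, which are given in brackets with the number tested. The causes were not tested. In females (0 called, all genes 0 of 9465) the count was 4 with all 4 groups in 1 fit (427 of 9806) and 3 with DESeq2 (301 of 8358). It was 7 with quality weights in limma-voom (1058 of 9465) and 5 without a count filter (484 of 17177). With a mouse left out it was 0 to 6 (6 without WTF 1091, 936 of 9709). DESeq2's own 3 became 0 to 8. It was 0 without KOF 1070 (52 of 7291), 1104 (73 of 6650) or 1105 (76 of 6950), and 1 without WTF 1089 (162 of 6242). It was 7 without WTF 1090 (216 of 5938) and 8 without WTF 1091 (831 of 6674). For the difference between the sexes (0 called) the count was 3 with DESeq2 (265 of 7648), 4 with quality weights (558 of 9806) and 2 without a filter (325 of 17874). With a mouse left out it was 0 to 3 (from 0 of 10093 without KOF 1070 to 522 of 10127 without WTF 1091). DESeq2's 3 became 0 to 5 there (5 without WTF 1090 or 1091, 0 without KOF 1070, KOM 1076, KOM 1081 or WTM 1087, and 1 without KOF 1104, KOF 1105, WTF 1089 or WTM 1086), and the median of 0.29 became 0.42 with quality weights and 0.15 to 0.43 with a mouse left out (0.15 without KOF 1104, 0.43 without WTF 1091). Over all genes the DESeq2 counts for this difference ran from 98 of 5237 (without WTM 1087) to 644 of 6936 (without WTF 1091). With the sexes combined the median was -0.06 to 0.15, negative without KOF 1104. Between wild type sexes (1 called, all genes 130 of 9335) the count was 0 with at least 10 counts in every library (50 of 6865). It was 3 without a filter (536 of 16902). With a mouse left out it stayed at 1 without WTF 1091 (740 of 9576) and was 0 without any of the other 5 (43 of 9529 to 89 of 9470). DESeq2's 1 (338 of 9197) became 0 to 2 (112 of 11289 to 737 of 6563). Between KO sexes (11 called, all genes 1044 of 9102) the count was 2 with all 4 groups in 1 fit (352 of 9806). With a mouse left out it was 5 to 15 (5 without KOM 1081, 486 of 9461), and the median of 0.31 became 0.28 to 0.45 (0.45 without KOM 1075). DESeq2's 13 (884 of 8769) became 8 to 15 (8 without KOF 1104, 516 of 5828).

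No paired analysis was possible because the mouse numbers differ between all groups. With 3 mice a group, a common coefficient of biological variation of 0.286 in females (0.191 without WTF 1091) and members at 12 counts or more, a p that misses the threshold does not show equal levels.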
